A study of Mus musculus with 2 samples.

Results

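The genes described here are the microRNA genes of the miR-15, miR-16, miR-195 and miR-497 family in aged mouse heart. They were chosen by gene symbol: Mir15a, Mir16-1, Mir15b, Mir16-2 and Mir195a, together with Mir195b and Mir497, which the annotation also holds. These 7 genes are part of 2202 annotated microRNA genes. The libraries came from heart tissue of female B6CASTF1/J mice aged 18 to 20 months, a first-generation hybrid of C57BL/6J and CAST/EiJ, with no treatment or transgene given in the labels. There was 1 group of 2 libraries, numbered by the labels as biological replicates 1 and 2 with separate tissue records and a shared donor record. Nothing in the labels says whether the tissues came from separate animals, so the SDs below, over n = 2, measure only the spread between these libraries, which may be technical. The design holds no contrast between conditions, and every test below compares these 2 libraries with each other.

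MicroRNAs of this family carry the same seed, the bases at the start of the mature strand that pair with target messenger RNAs. They are known to restrain the cell cycle by lowering cyclins, cyclin-dependent kinases and checkpoint kinases. In the mouse heart the family is known for its part in the postnatal arrest of cardiomyocyte division, where miR-195 is its best-studied member. The genes sit in pairs: Mir15a with Mir16-1, Mir15b with Mir16-2, and Mir497 with Mir195a.

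The mature sequences are shown first because they decide which reads can be given to which gene. The 5′ arms of the family follow, 5′ to 3′, from RefSeq on GRCm38.p6, with the seed (bases 2 to 8) in capitals.
miR-15a-5p: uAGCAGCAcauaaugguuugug
miR-15b-5p: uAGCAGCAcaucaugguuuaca
miR-16-5p: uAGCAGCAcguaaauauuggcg
miR-195a-5p: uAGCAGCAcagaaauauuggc
miR-195b: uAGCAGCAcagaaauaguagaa
miR-497a-5p: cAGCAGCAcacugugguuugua
All 7 members matched RefSeq mature entries, with 13 arms of 12 distinct sequences, because miR-16-5p is encoded by both Mir16-1 and Mir16-2. The seed is the same in all 6 sequences, and the differences lie mostly after it. Compared base by base from the 5′ end, miR-15a-5p and miR-15b-5p were identical at 18 of 22 positions. The closest pair of different genes' sequences by this count was miR-16-5p and miR-195a-5p, identical at 19 of 21 positions and parted by the substitutions G10A and U11G, with positions counted from 1 at the 5′ end and the miR-16-5p base first. The sequences of miR-195a-5p and miR-195b start with the same 16 bases. The sequences of miR-497a-5p and miR-15a-5p were identical at 17 of 22 positions, although they differ at the first.

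The hairpins of Mir16-1 and Mir16-2 are shown because they hold the only mature sequence of the family that fits more than 1 member. Mature arms are in capitals, the shared miR-16-5p first and the arm of the other side second.
Mir16-1: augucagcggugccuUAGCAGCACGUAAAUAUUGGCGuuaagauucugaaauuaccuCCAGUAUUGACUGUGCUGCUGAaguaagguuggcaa
Mir16-2: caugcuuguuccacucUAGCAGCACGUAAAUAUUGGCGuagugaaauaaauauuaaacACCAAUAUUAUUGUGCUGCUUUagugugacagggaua
The longest stretch these hairpins share is 23 bases, which contains the whole of miR-16-5p. A read within that stretch fits both loci, and the files count multimapping reads for the library as a whole and not by gene. The counts of Mir16-1 and Mir16-2 are therefore no measure of miR-16-5p. Their 3′ arms differ, and each was found in 1 gene among the GENCODE M21 transcripts. The 5′ arms of Mir15a, Mir15b, Mir195a, Mir195b and Mir497 were each also found in 1 M21 gene. The rest of the genome was not searched.

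The Mir15a hairpin lies on mm10 chromosome 14 from 61632027 to 61632110, minus strand, and Mir16-1 follows it at 61631880 to 61631972 after a gap of 54 nt. Both lie within Dleu2, a long noncoding RNA gene of the same strand. Mir15a is intronic in all 8 Dleu2 transcripts that span it, whereas Mir16-1 overlaps 1 exon. Mir15b (chromosome 3, 69009772 to 69009835, plus strand) and Mir16-2 (69009902 to 69009996), 66 nt apart, lie in an intron of all 5 spanning transcripts of Smc4, which encodes a condensin subunit that compacts chromosomes for division. Mir497 (chromosome 11, 70234717 to 70234800, plus strand) lies upstream of Mir195a (70235042 to 70235135), with a gap of 241 nt, and no host gene of M21 spans either. On the opposite strand, all 84 nt of Mir497 are covered by another microRNA gene, Mir497b. Mir195b stands alone on chromosome 2, from 56785811 to 56785907.

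**Figure D1:**
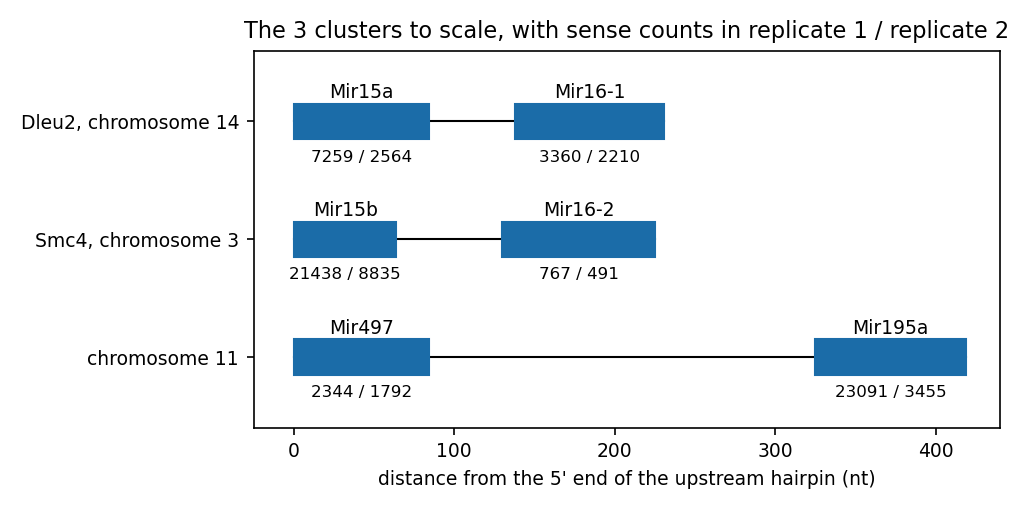
Hairpins of the 3 clusters drawn to scale, with distance in nt from the 5′ end of the upstream hairpin on the horizontal axis and 1 row per cluster; the numbers under each hairpin are sense counts in replicate 1 and replicate 2. The hairpin with the higher count is upstream in the chromosome 14 and chromosome 3 clusters and downstream in the chromosome 11 cluster, where the gap of 241 nt is the widest.

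Replicate 1 held 3383676 and replicate 2 held 3676084 counts on the sense strand of microRNA genes, and levels are given as counts per 1000000 of these (CPM). Multimapping reads took 43.9% and 43.2% of all reads of the libraries. Heart muscle microRNAs were present in both libraries, with Mir499 at 3977 and 3567 CPM and Mir208a at 1588 and 1247 CPM. Blood cell microRNAs were present too and did not move together: the erythroid genes Mir144 (1119 and 255 CPM) and Mir451a (1691 and 803 CPM) were higher in replicate 1, and the white blood cell genes Mir150 (2345 and 7737 CPM) and Mir142 (570 and 1323 CPM) in replicate 2. In bulk tissue, fewer cells of a type and less RNA per cell cannot be told apart. Intervals and floors below cover counting error only, because PCR copies of a molecule could not be told from separate molecules.

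Of the 7 members, 6 reached 10 counts in both libraries, the minimum for a gene to be called detected, and Mir195b had 0 counts in both, which allows up to 0.887 CPM in replicate 1 and 0.816 CPM in replicate 2 at a limit of 3 counts. Together the members took 1.72% of the sense gene counts in replicate 1, with a Wilson 95% interval of 1.71 to 1.74, and 0.526% (0.519 to 0.534) in replicate 2, or 1.12% ± 0.845 (SD, n = 2). Reads of miR-16-5p that fit both of its loci are not in these shares, so they do not give the family's part of the whole library.

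Among the members with a mature sequence of their own, Mir15b, the Smc4 member, reached 6336 CPM (6252 to 6421) in replicate 1 and 2403 CPM (2354 to 2454) in replicate 2, with Wilson intervals in brackets here and for the other members. Its mean of 4370 ± 2781 CPM was the highest of the family and placed it at rank 31 of all microRNA genes. Mir15a, the Dleu2 member, had 2145 CPM (2097 to 2195) and 697 CPM (671 to 725), with a mean of 1421 ± 1024 CPM. Both miR-15 genes were lower in replicate 2, and Mir15b stood above Mir15a in each library.

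Mir195a, the member best known from cardiomyocytes, differed most between the libraries. It had 6824 CPM (6737 to 6913) in replicate 1 and 940 CPM (909 to 972) in replicate 2, a mean of 3882 ± 4161 CPM with an SD larger than the mean. By gene counts it was first among the members in replicate 1, at rank 23 of all genes. In replicate 2 it came after Mir15b, at rank 65. Mir497, its neighbour, had 693 CPM (665 to 721) and 487 CPM (465 to 511), or 590 ± 145 CPM.

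The counts of the miR-16 loci were lower. Mir16-1 had 993 CPM (960 to 1027) and 601 CPM (577 to 627), with a mean of 797 ± 277 CPM, and Mir16-2 had 227 CPM (211 to 243) and 134 CPM (122 to 146), with a mean of 180 ± 65.8 CPM. Since reads of miR-16-5p fit both loci, these values cannot be set against those of the miR-15 genes as levels of the mature microRNA.

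By mean, the order ran Mir15b, Mir195a, Mir15a, Mir16-1, Mir497, Mir16-2 and Mir195b. Among the first 5, each difference between neighbours was smaller than the larger SD of the pair. Mir15b lay above Mir15a, Mir16-1 and Mir497 by more than that SD (by 2948, 3572 and 3779 CPM, against 2781). Mir195a was told apart by this rule from no other member, not even Mir195b at 0 counts, because its SD is larger than its mean. In each library Mir195a nevertheless stood above every member other than Mir15b. Mir16-2 lay below Mir15b, Mir15a, Mir16-1 and Mir497 by more than the larger SD, which for its neighbour Mir497 was 410 CPM against 145. The places of both miR-16 loci are those of their gene counts, without the miR-16-5p reads that fit both. The Mir15b and Mir195a pair changed places between the libraries, and the other neighbouring pairs kept their order in both.

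**Figure D2:**
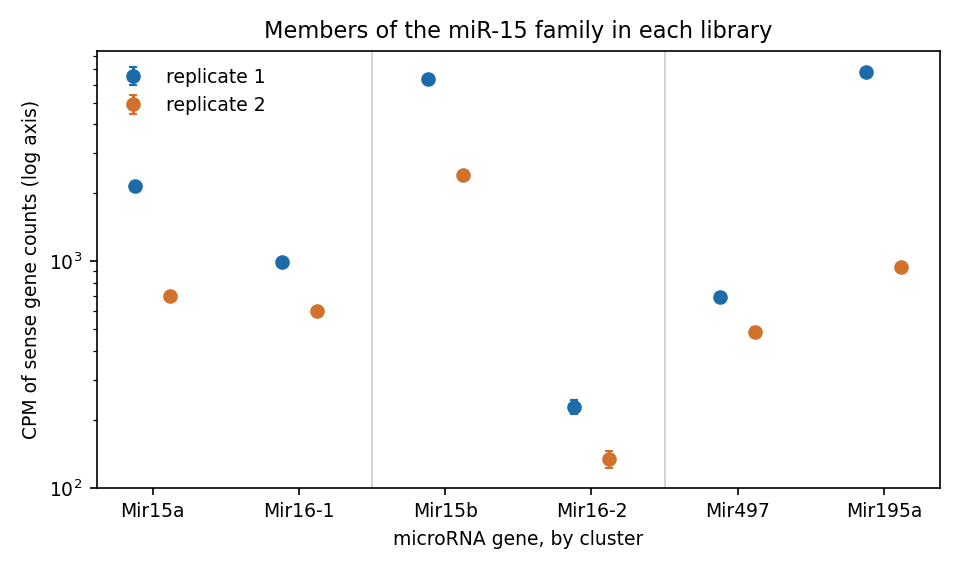
CPM of sense gene counts on a log axis for the 6 detected members, grouped by cluster, with replicate 1 in blue and replicate 2 in orange and bars for the Wilson 95% interval of each library. Replicate 1 lies above replicate 2 for all 6, and the gap is widest for Mir195a, at 6824 and 940 CPM.

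All 6 detected members were lower in replicate 2. A two-sided exact binomial test with TMM scaling and Benjamini-Hochberg adjustment across the 316 detected genes called 6 of 6 members higher in replicate 1, where 27.2% of all detected genes were called in that direction, 33.2% were called higher in replicate 2 and 60.4% were called in either. The test sets the libraries against counting noise alone, and its calls do not bear on a condition. The log2 ratio of replicate 2 over replicate 1 was -2.98 for Mir195a (exact 95% interval -3.04 to -2.93), -1.74 for Mir15a (-1.81 to -1.68) and -1.52 for Mir15b (-1.56 to -1.49). These correspond to TMM-scaled counts, not CPM, that were 7.91, 3.35 and 2.87 times as high in replicate 1. The ratio was -0.89 for Mir16-2 (-1.05 to -0.72), -0.85 for Mir16-1 (-0.93 to -0.77) and -0.63 for Mir497 (-0.72 to -0.54). The largest adjusted p of the members in the exact binomial test was 1.81e-26, for Mir16-2, the member with the fewest counts.

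By size, 3 of 6 members differed by 2-fold or more, all of them higher in replicate 1, against 22.2% of all detected genes in either direction and 11.7% higher in replicate 1. The members' median log2 ratio was -1.20 and that of all 316 detected genes 0.05. Their median coefficient of variation over the libraries was 0.501, against 0.224 for all detected genes. Of the 316 ratios, only 1 was lower than that of Mir195a, while Mir15a was the 12th and Mir15b the 15th from the low end. Mir497 and both miR-16 genes lay further inside the distribution, with 66, 51 and 46 ratios at or below those of Mir497, Mir16-1 and Mir16-2. Of the 10 marker genes with counts, 7 were also called higher in replicate 1: the erythroid Mir144 (log2 ratio -2.26) and Mir451a (-1.20), the heart and slow muscle genes Mir208b (59.1 and 17.1 CPM, -1.91), Mir208a (-0.47) and Mir499 (-0.28), the endothelial Mir126a (129043 and 57714 CPM, -1.28) and the liver gene Mir122 (23.9 and 17.1 CPM, -0.61). The other 3, the white blood cell genes Mir150 (1.60) and Mir142 (1.09) and the smooth muscle gene Mir143 (33589 and 43744 CPM, 0.26), were called higher in replicate 2. The 3 neuronal Mir124a loci had 0 counts in both libraries. The part of these cell types in the members' differences was not tested.

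**Figure D3:**
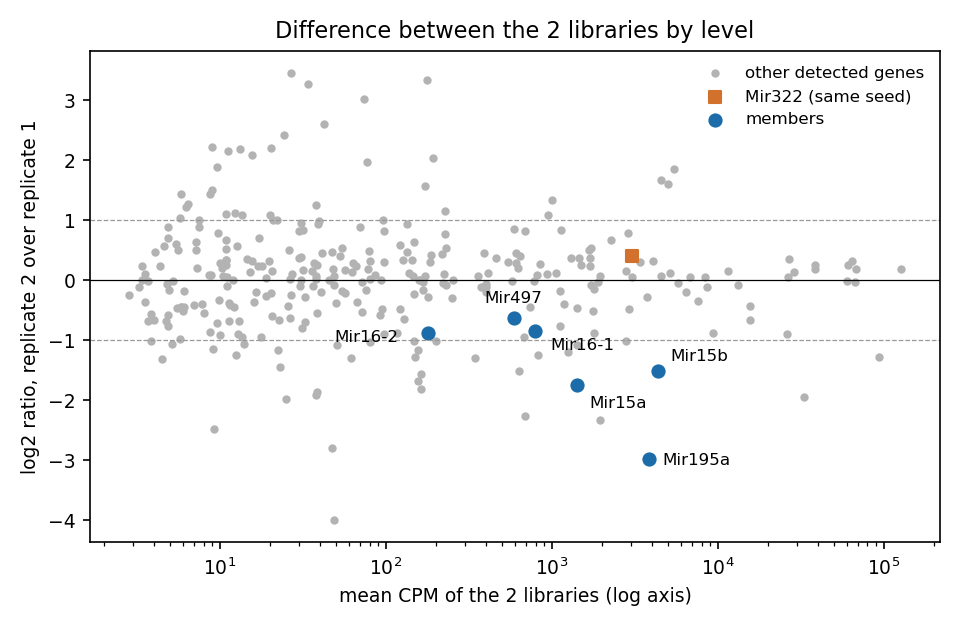
Log2 ratio of replicate 2 over replicate 1 against the mean CPM on a log axis for the 316 detected genes, with members in blue, Mir322 as an orange square and dashed lines at a 2-fold difference. Mir15a, Mir15b and Mir195a lie below the lower dashed line, whereas Mir16-1, Mir16-2 and Mir497 lie between it and 0.

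Within each cluster the partners' gene counts differed from each other in how far apart the libraries stood. A ratio of 2 genes in the same library needs no scaling between libraries. Mir15a was 2.16 times Mir16-1 in replicate 1, with an exact 95% interval of 2.07 to 2.25, against 1.16 times (1.10 to 1.23) in replicate 2. Mir15b was 27.95 times Mir16-2 (26.0 to 30.1) in replicate 1 against 18.0 times (16.4 to 19.7) in replicate 2. Mir195a was 9.85 times Mir497 (9.44 to 10.3) in replicate 1 against 1.93 times (1.82 to 2.04) in replicate 2. All 3 ratios were above 1 in both libraries and higher in replicate 1, by 1.86, 1.55 and 5.11 times. In the chromosome 14 and chromosome 3 clusters the partner's count leaves out reads of miR-16-5p that fit both of its loci. Those ratios are therefore ratios of gene counts and do not place the mature miR-15 above miR-16. Nor does their change between the libraries measure a change of mature miR-15 against miR-16. The two-sided Fisher exact test of genes by libraries, adjusted over the 3 clusters, gave an adjusted p of 2.75e-67 for the chromosome 14 cluster and 2.70e-13 for the chromosome 3 cluster, and for the chromosome 11 cluster, which had the largest change, a value too small to be computed. These tests cover counting noise between the libraries only.

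**Figure D4:**
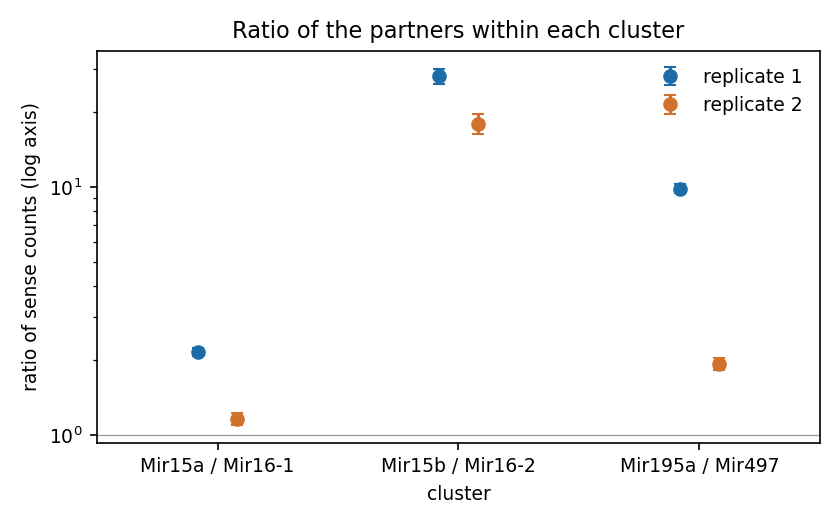
Ratio of the sense counts of the partners of each cluster on a log axis, with replicate 1 in blue, replicate 2 in orange and bars for exact 95% intervals. No interval of replicate 1 meets that of replicate 2, and the chromosome 11 pair falls from 9.85 to 1.93.

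The clusters also held different portions of the members' gene counts in the libraries. Mir195a and Mir497 held 43.7% of the members' counts in replicate 1 and 27.1% in replicate 2. Mir15b and Mir16-2 held 38.1% and 48.2%, and Mir15a and Mir16-1 held 18.2% and 24.7%. Multimapping reads of miR-16-5p are missing from the chromosome 14 and chromosome 3 clusters, so these portions do not rank the clusters. In replicate 1 the chromosome 11 cluster had 25435 counts and the chromosome 3 cluster 22205. In replicate 2 the order was reversed, with 5247 counts for the chromosome 11 cluster and 9326 for the chromosome 3 cluster.

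Strand mattered for Mir497 alone among the members. No member had a count in the antisense column in either library. Mir497b, which covers Mir497 on the other strand, had 0 sense counts, and its antisense counts of 2344 and 1792 equal the sense counts of Mir497. In the column that ignores strand, Mir497 stood at 0 in both libraries, while the counts of the other members were the same as in the sense column. That column holds 9.89% and 8.08% of all reads as ambiguous, where the sense column holds none.

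Outside the members, 4 genes carry a mature arm with the same seed: Mir322, Mir6342, Mir6353 and Mir6419. Only Mir322 had counts, and the other 3 stood at 0 in both libraries, with the same upper limits as Mir195b. Its mature sequence is shown for comparison with those above, seed in capitals.
miR-322-5p: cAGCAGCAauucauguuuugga
Mir322, an X-linked relative that is also known to act on cyclins and their regulators, had 2499 CPM in replicate 1 and 3614 CPM in replicate 2. Its log2 ratio was 0.41 (exact 95% interval 0.37 to 0.45; exact binomial test, adjusted p = 1.24e-92), the opposite direction to the 6 detected members. Mir503, its neighbour, whose 5′ arm has AGCAGCG as bases 2 to 8, had 43.7 and 47.6 CPM, and its interval of the log2 ratio ran from -0.33 to 0.32.

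Of 38 symbols of other microRNA genes known to act on the cell cycle, among them Mir322 and Mir503, 37 were annotated and 32 detected. Of these, 10 were called higher in replicate 1, 17 higher in replicate 2 and 5 in neither direction, beside 27.2% and 33.2% of all detected genes in these directions. The median log2 ratio was 0.06, against 0.05 for all detected genes. The most abundant were Mirlet7b (60724 and 75199 CPM), Mirlet7i (65329 and 69311 CPM), Mirlet7g (57792 and 62573 CPM) and Mir26b (26223 and 31504 CPM), whose log2 ratios lay between -0.04 and 0.18. The widest differences, among genes averaging at least 100 counts, were those of Mir34c (30 and 323 CPM, log2 ratio 3.33), a p53-responsive microRNA, Mir25 (925 and 354 CPM, -1.51), Mir26a-2 (85.4 and 37.8 CPM, -1.30) and Mir449a (20.98 and 54.7 CPM, 1.26). The list thus went both ways.

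Outside the genes with this seed, the log2 ratio nearest to that of Mir15b among 193 genes averaging at least 100 counts was that of Mir25 (-1.51), followed by Snord43 (-1.56) and Mir210 (-1.69). Nearest to Mir15a were Mir210, Mir152 (-1.81) and Mir340 (-1.86). The nearest to Mir195a were further off, Mir301 at -2.80, Mir214 at -2.33 and Mir144 at -2.26. This likeness rests on 2 libraries only.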

How the data were processed

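For each library the authors deposited a table of raw counts by microRNA gene without headers. Its values show 3 columns, for sense reads, antisense reads and reads of either strand. Per the deposited readme text, mm10 and GENCODE M21 were used. The names of the aligner and counter were not given in the sources used here. The 4 rows that name no gene entered neither totals nor tests. In the sense column they took 14.9% (unmapped), 43.9% (multimapping), 5.07% (no feature) and 0% (ambiguous) of replicate 1, and 16.2%, 43.2%, 5.75% and 0% of replicate 2. All 2202 identifiers matched M21. Reads were counted on mm10, so the effect of CAST/EiJ variants was not tested.

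Sense counts were the main values. Genes with 10 counts or more in each library were compared by a two-sided exact binomial test, its null share set by TMM-scaled library totals (edgeR 4.0.16), with Benjamini-Hochberg adjustment over all detected genes at 0.05. DESeq2 1.42.0 gave alternative size factors. Other tools were Python 3.11.15 with scipy 1.17.1, pandas 2.3.3, numpy 2.4.6 and matplotlib 3.10.9, and R 4.3.3. Only the binomial test was tried on simulated data, with Poisson counts, known fold changes and unscaled library totals. Intervals are at 95%.

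Mature arms (7 of 7 members) and hairpins (6 of 7; Mir15a has none in the table used) came from RefSeq, GRCm38.p6, and were searched in M21 transcripts. The 6 hairpins had the same positions in both annotations. The members, lists and alternatives were chosen with earlier results of these data known. The rule names every member, every gene with the seed, the 3 genes of nearest log2 ratio to Mir15b, Mir195a and Mir15a, and from the cell cycle list the 4 highest and the 4 of widest ratio. Mir503 was named beside its neighbour, and the heart and blood genes as a tissue check.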

Additional observations from a re-analysis of the deposited data

How the results depend on the processing

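The 6 detected members stayed lower in replicate 2 and called with DESeq2 size factors, library totals, and minimum counts of 1 or 100, and so did 5 of 5 with reads on either strand, where Mir497 is at 0 and gives no log2 ratio and no ratio to Mir195a. The log2 ratio ran from -3.04 to -2.86 for Mir195a and from -0.69 to -0.51 for Mir497. The largest adjusted p in the exact binomial test over all settings was 7.60e-20, for Mir16-2. The number at 2-fold or more was 3 in every setting run, where the share of all tested genes ran from 17.7% (minimum 100) to 32.1% (minimum 1). The share of all tested genes called higher in replicate 1 ran from 16.7% (minimum 1) to 37.0% (minimum 100), and was 29.7% with DESeq2 size factors and 22.2% with library totals, which moved the median log2 ratio of all genes from 0.05 to 0.18. The column for either strand has a smaller total, so mean CPM was higher there for Mir15a (1930), Mir16-1 (1075), Mir15b (5925), Mir16-2 (243) and Mir195a (5309), and the members' share was 1.45%. Without Mir378a in the denominator the share was 1.28%. With a library left out, the share ran from 0.526% to 1.72% and the ratios from 1.16 to 2.16 (Mir15a over Mir16-1), 18.0 to 27.95 (Mir15b over Mir16-2) and 1.93 to 9.85 (Mir195a over Mir497). No paired analysis was possible because there is 1 group. Depth limits Mir195b, at 0 counts, and the multimapping reads limit both miR-16 loci.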

Other observations

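Across clusters, the gene counts of the miR-16 loci kept nearly the same ratio in both libraries. Mir16-1 was 4.38 times Mir16-2 in replicate 1 (exact 95% interval 4.05 to 4.74) and 4.50 times (4.08 to 4.97) in replicate 2. These counts leave out reads of miR-16-5p that fit both loci, so the ratio does not compare the output of the loci. Ratios to Mir16-1 below carry the same limit. Mir15b was 2.95 times Mir15a (2.88 to 3.03) in replicate 1 and 3.45 times (3.30 to 3.60) in replicate 2. Mir497 was 0.698 times Mir16-1 (0.661 to 0.736) and 0.811 times (0.761 to 0.863). From replicate 2 to replicate 1 these ratios changed by 0.857 to 0.973 times. Each joins members with close log2 ratios, either -1.52 and -1.74 or between -0.63 and -0.89. Pairs across clusters that join the first set with the second differ more between the libraries. No contrast between ratios across clusters and ratios within a cluster therefore follows. The ratios of Mir195a changed more. Mir195a was 1.08 times Mir15b (1.06 to 1.10) in replicate 1 and 0.391 times (0.376 to 0.407) in replicate 2. It was 6.87 times Mir16-1 (6.63 to 7.13) in replicate 1 and 1.56 times (1.48 to 1.65) in replicate 2. These pairs were picked after their values were seen, and no test was made.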
